A study of Arabidopsis thaliana with 5 samples.

Results

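The WRKY genes of Arabidopsis thaliana encode plant transcription factors that take their name from a conserved stretch of amino acids in the DNA-binding domain. The members described here are the nuclear protein-coding genes whose symbol is WRKY followed by a number, 67 of 27432 in the gene table used. WRKY1, WRKY16, WRKY44, WRKY52 and WRKY63 stand in that table under other symbols and are given apart, as 5 further genes. R-loops were mapped by DNA:RNA immunoprecipitation (DRIP), in which the S9.6 antibody pulls down DNA that carries an RNA paired to one of its strands. The material was nuclei of wild-type seedlings of the Columbia ecotype, 12 days old, and all 5 samples of the series share that genotype, tissue and age. Peak lists were analysed for 2 DRIP replicates, while the input (1 sample) and the 2 samples treated with RNase H, an enzyme that degrades the RNA of a hybrid, are not analysed here, so the level of each peak after RNase H was not compared. The peaks of opposite DNA strands are in a w list and a c list, both recorded under DRIP replicate 1, and the sources used here do not settle which of them marks the RNA strand.

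WRKY proteins bind a short DNA element called the W-box in the promoters of their targets, WRKY genes included, and are best known from immunity, where kinase cascades set off by microbial patterns and the hormone salicylic acid act through them. Others act in leaf senescence, phosphate supply, heat tolerance, pollen, seed and stem development. The family is divided by the number and type of its WRKY domains: group I proteins carry a pair of them, group II proteins carry one and fall into subgroups IIa to IIe, and group III proteins carry one with a different zinc finger. No expression was measured in this series. The seedlings were used whole, so a strong R-loop in few cells and a weak one in many cells cannot be told apart.

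The lists hold 47291 peaks in DRIP replicate 1, 39888 in DRIP replicate 2, 34493 in the w list and 34069 in the c list. Since the lists give peaks and no read totals, sequencing depth is unknown. The fold of a gene below is the highest fold among the peaks that overlap it by at least 1 bp, and a peak's fold is the authors' own ratio of the pileup at its summit to the local background. Folds of different lists are set side by side only, since it is not given whether they share a scale. With 2 samples, and with genes that are not replicates of each other, no test across samples was possible, and no p-value is given. Counts of members are read against the share among all protein-coding genes and against the share among genes of the same length, which is the mean over members of the share among the other protein-coding genes within 10% of a member's length. These windows held 223 to 3822 genes.

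WRKY genes carried DRIP peaks about as often as other genes of their length. A peak lay in both replicates at 43 of the 67 WRKY genes (64.2%), against 60.6% of all protein-coding genes and 63.3% of genes of the same length. DRIP replicate 1 had a peak at 47 WRKY genes (67.3% of all genes, 70.2% of genes of the same length) and DRIP replicate 2 at 44 (62.1% and 64.7%). The share of WRKY genes with a peak was 67.9% ± 3.17 (SD, n = 2 replicates) and that of genes of the same length 67.5% ± 3.88, so the difference of 0.43 ± 0.72 percentage points was smaller than the spread between replicates. DRIP peaks covered 17.8% ± 0.92 of a WRKY gene's bases on average and 16.6% ± 1.14 in genes of the same length, with the WRKY value the higher in replicate 1 (18.5% and 17.4%) and in replicate 2 (17.2% and 15.8%) by about the size of the SDs. In 42 of the 43 genes with a peak in both replicates a replicate 1 peak overlapped a replicate 2 peak. The exception was WRKY6, a repressor of the phosphate exporter gene PHO1, whose peaks lay at chr1:23018706-23018836 and chr1:23019077-23019304 in replicate 1 and at chr1:23017317-23017416 in replicate 2.

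The family spanned the whole range from no peak at all to folds among the highest of the genome. The mean fold of the 43 members with a peak in both replicates ran from 2.44 at WRKY6 to 6.85 at WRKY11, with a median of 3.95, beside 3.72 for all protein-coding genes with a peak in both. Taking the smaller of the replicate folds and counting a gene without a peak as 0, the median was 3.02 over the WRKY genes and 2.65 over all genes. The replicate 1 fold was the higher at 28 members and the replicate 2 fold at 15. The SD of a member's replicate folds was between 0.0267 and 1.13, with a median of 0.243, and it exceeded 0.5 at 6 members: WRKY6, WRKY7, WRKY11, WRKY14, WRKY48 and WRKY70. WRKY48, a negative regulator of resistance to bacteria, had the widest gap, with folds of 5.89 and 4.29.

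**Figure D1:**
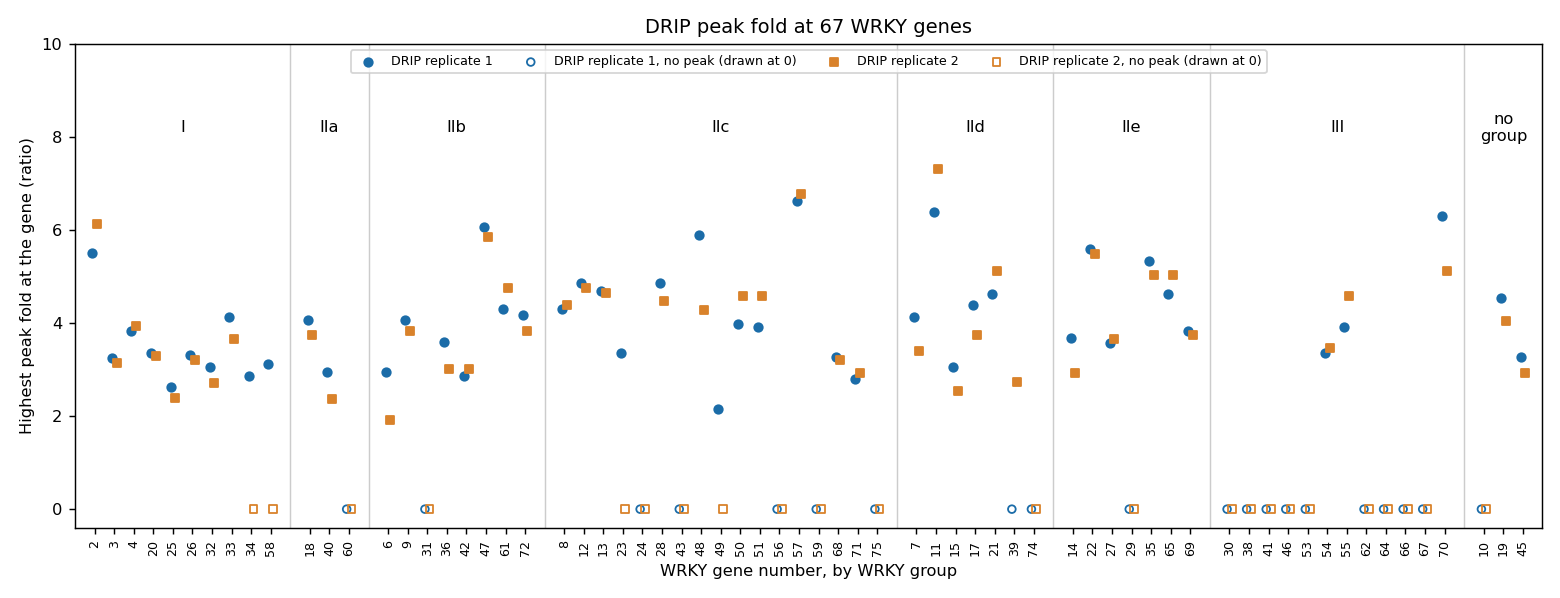
Highest DRIP peak fold at each of the 67 WRKY genes (ratio of the pileup at the peak summit to the local background), by WRKY group and gene number; circles are DRIP replicate 1, squares DRIP replicate 2, and open symbols at 0 are genes with no peak in that replicate. The highest pairs of points are those of WRKY11 and WRKY57, and most of group III lies at 0 in both replicates.

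The members with the highest folds came from different groups and roles. WRKY57, which acts in drought tolerance and leaf senescence, had folds of 6.62 and 6.77 in DRIP replicates 1 and 2 (mean 6.70 ± 0.107, SD, n = 2), which placed it at rank 76 of 27432 genes by the smaller fold. Its replicate 1 peak of 1095 bp lay at chr1:26057212-26058306 (TAIR10), inside the gene towards its higher-coordinate end, and its folds were 10.2 in the w list and 4.00 in the c list. WRKY11, a negative regulator of resistance to Pseudomonas bacteria, had folds of 6.38 and 7.31 (rank 119). A single peak covered 60.0% of WRKY11 in replicate 1 (chr4:15290647-15292073, 1427 bp) and another at the same place 54.6% in replicate 2 (chr4:15290762-15292097, 1336 bp). Its w peak, at chr4:15290691-15292093, had a fold of 11.3, rank 11 of all genes in that list, and no c peak overlapped the gene. WRKY47, a regulator of aluminium tolerance, was the reverse case, with DRIP folds of 6.06 and 5.85 (rank 325), a c fold of 11.3 (rank 14 of all genes in the c list) and no w peak. Its c peak at chr4:747380-747989 and its replicate 1 peak at chr4:747396-747983 nearly coincided.

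WRKY2, which acts in pollen and in the polarity of the zygote, had DRIP folds of 5.50 and 6.13, and peaks of both strands, with a w fold of 9.87 and a c fold of 7.26. These lay apart along the gene: the c peak at chr5:22780668-22780974 ended below the start of the w peak at chr5:22781141-22781685, and each coincided with a DRIP peak of both replicates. WRKY22, an effector of the kinase cascade set off by bacterial flagellin, had folds of 5.58 and 5.49, with 10.2 in the w list and 4.44 in the c list. The highest peak of WRKY22, at chr4:524225-524516 in replicate 1, crossed the gene's higher-coordinate end and had its summit just outside the gene. WRKY70, which balances salicylic and jasmonic acid responses, had folds of 6.30 and 5.12, a w fold of 8.99 and a c fold of 2.96. WRKY35 (5.34 and 5.03, w 9.87) and WRKY12 (4.87 and 4.75, w 8.84), a repressor of secondary wall formation in stem pith, had no c peak.

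**Figure D2:**
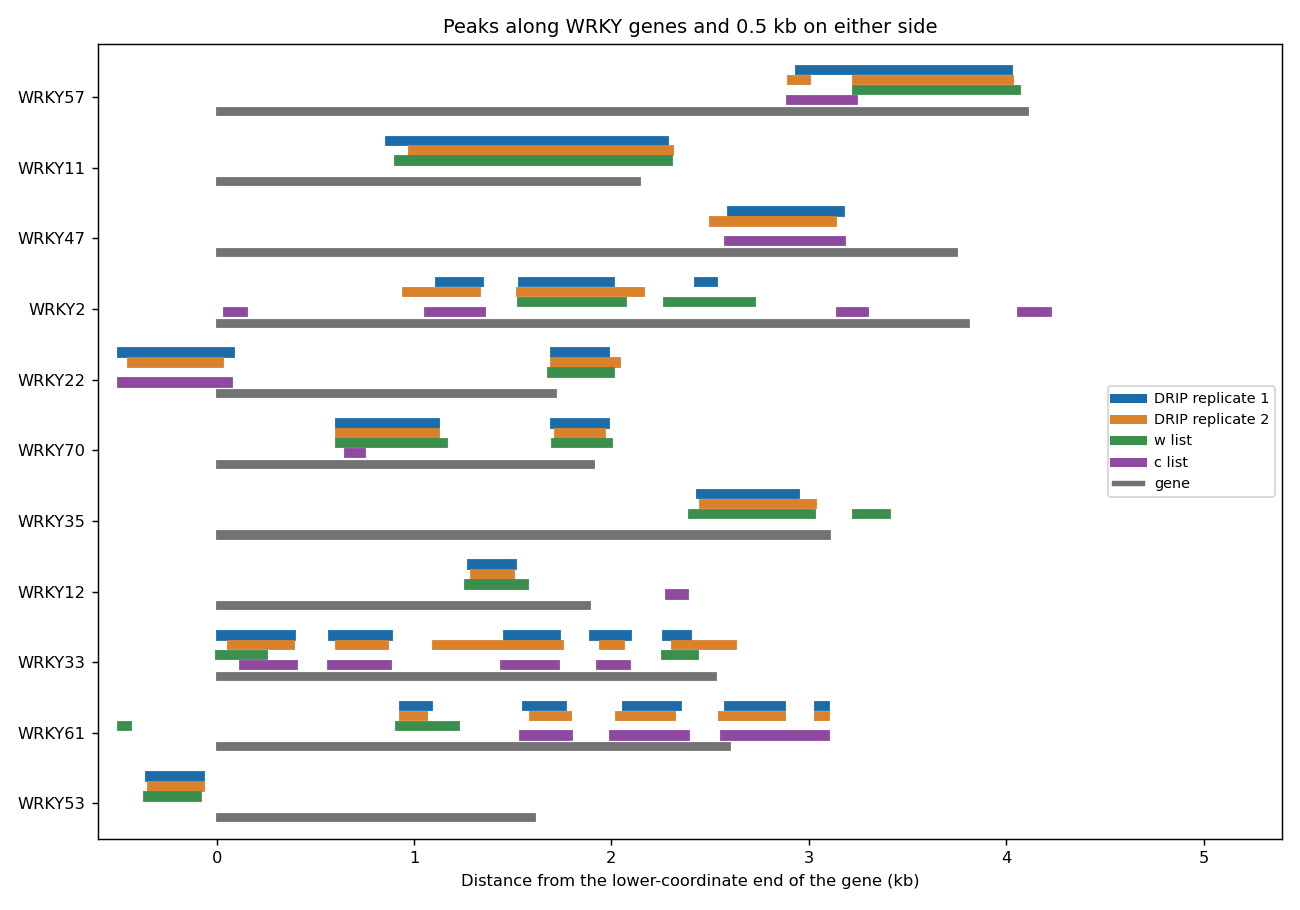
Peaks of the 4 lists along the 8 WRKY genes ranked highest by the smaller of their DRIP folds and along WRKY33, WRKY61 and WRKY53; the x axis is the distance in kb from the lower-coordinate end of the gene (grey bar), and peaks are drawn up to 0.5 kb beyond either gene end. WRKY11 carries 1 wide peak, WRKY33 a run of 5 DRIP peaks, and the peaks beside WRKY53 stop short of the gene.

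By strand, the family stood further from the background than it did in the DRIP lists. A w peak lay at 45 of the 67 members (67.2%), against 54.9% of all protein-coding genes and 57.1% of genes of the same length. A c peak lay at 42 members (62.7%; 54.8% of all genes, 56.9% at the same length). Peaks of both lists were at 32 members (47.8%), against 30.7% of all genes and 31.7% of genes of the same length, a difference of 16.1 percentage points. Genes with peaks of only one strand were correspondingly fewer: 13 members had a w peak and no c peak (19.4%; 24.2% of all genes, 25.4% at the same length), and 10 had a c peak and no w peak (14.9%; 24.1% and 25.2%). Neither list had a peak at 12 members (17.9%; 21.0% and 17.7%). Each strand has a single list, so these counts have no replicate error, and whether a difference of this size lies outside chance was not tested.

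Among the 32 members with both, the w fold was the higher at 17 and the c fold at 15. The summit of the highest c peak lay at a lower coordinate than that of the highest w peak at 23 of the 32 (71.9%), as it did at 75.2% of the 8429 protein-coding genes with both. Of 61 w peaks at WRKY genes 7 overlapped a c peak. Of the 96 replicate 1 peaks at WRKY genes, 41 met w peaks alone, 46 met c peaks alone and 9 met peaks of both lists. Shares among peaks at other genes are not given here, so these counts do not show whether WRKY genes differ. The pair WRKY12 and WRKY13, which act in opposite directions on stem wall formation and on flowering, both had w peaks only. WRKY13 carried DRIP folds of 4.69 and 4.65 and a w fold of 7.84.

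Members were more frequent among the highest w folds than among the highest c folds. The top 5% of all protein-coding genes by w fold (5.0% of genes by construction) held 11 WRKY genes (16.4%; 5.07% of genes of the same length): WRKY2, WRKY8, WRKY11, WRKY12, WRKY17, WRKY22, WRKY27, WRKY35, WRKY57, WRKY65 and WRKY70. The corresponding top 5% by c fold (5.0% of genes) held 1 (1.49%; 5.19% of genes of the same length), WRKY47. The top 5% by the smaller DRIP fold (5.13% of genes, with ties) held 6 members: WRKY2, WRKY11, WRKY22, WRKY47, WRKY57 and WRKY70. At the top 10% the counts were 15 by w fold (22.4%; 10.1% of all genes, 10.3% at the same length) and 8 by c fold (11.9%; 10.0% and 10.3%). By the smaller DRIP fold the count was 11 (16.4%; 10.1% and 10.6%). The size of the gap between w and c thus depends on the cut. Gene direction is not in the gene table, so whether the gap follows from the members' direction was not tested. After WRKY47 the highest c folds were 7.85 at WRKY61, 7.70 at both WRKY21 and WRKY72 and 7.55 at WRKY28. The first of these lay just under the 5% cut of 7.86 for c folds. The c peaks behind the folds of WRKY61 and WRKY72 crossed the gene's higher-coordinate end and had their summits outside the gene. WRKY28 activates the salicylic acid synthesis gene ICS1 and had DRIP folds of 4.87 and 4.48 and a w fold of 3.39. WRKY72, which acts in immunity to nematodes and oomycetes, had DRIP folds of 4.16 and 3.82 and a w fold of 4.15. WRKY21 had DRIP folds of 4.63 and 5.12 and a w fold of 3.98.

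**Figure D3:**
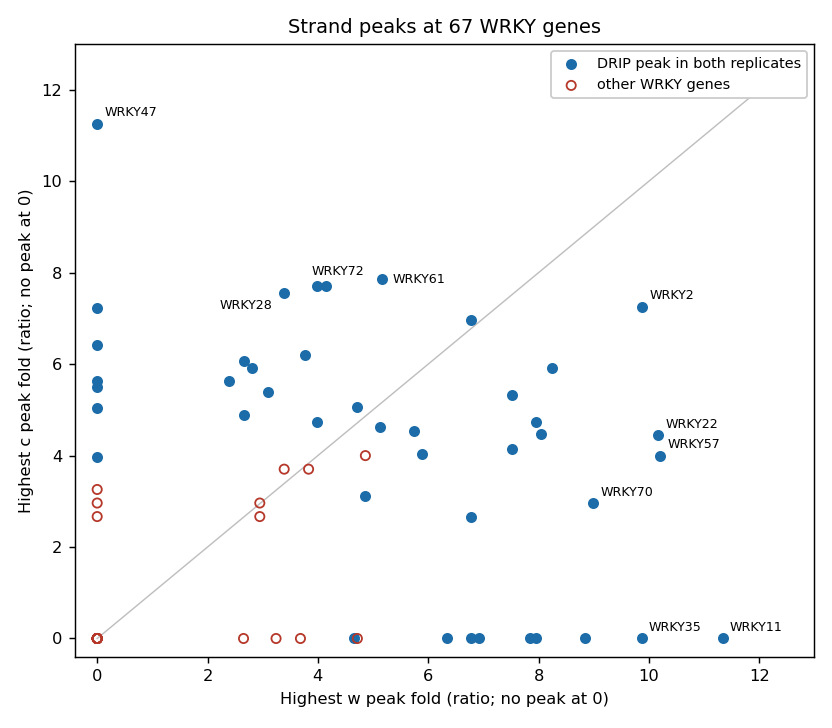
Highest w peak fold (x axis, ratio) against highest c peak fold (y axis, ratio) at the 67 WRKY genes, with genes that lack a peak of a list drawn at 0 and the grey line marking equal folds; filled points had a DRIP peak in both replicates. WRKY11 and WRKY47 lie on opposite axes at 11.3, and the points above 8 on the w axis outnumber those above 8 on the c axis.

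Group I, whose proteins carry a pair of WRKY domains, had a DRIP peak in both replicates at 8 of its 10 members (80.0%; 68.5% of genes of the same length). WRKY33, which is phosphorylated by MPK3 and MPK6 and drives synthesis of the antifungal compound camalexin, had folds of 4.14 and 3.66, 4.72 in the w list and 5.07 in the c list. WRKY33 held 5 peaks in each DRIP replicate, which covered 53.3% and 63.3% of the gene. In replicate 1 they ran from chr2:16108237-16108632 to chr2:16110494-16110639, with w peaks over the first and the last of them and c peaks over all but the last. A long noncoding RNA gene (AT2G08965) and a protein-coding gene (AT2G38480) overlap WRKY33. In both replicates, 1 of the 5 peaks lay over WRKY33 and AT2G08965. The last replicate 2 peak, at chr2:16110542-16110863, also lay over AT2G38480. These shared peaks cannot be given to either gene. WRKY25 (2.63 and 2.38) and WRKY26 (3.30 and 3.21), which act with WRKY33 in heat tolerance, also had peaks in both replicates. The highest peak of WRKY26 reached over the gene's end into the neighbouring gene PRA1.B6. WRKY3 (3.26 and 3.15) and WRKY4 (3.83 and 3.93), which act in resistance to necrotrophic fungi, had SDs between replicates of 0.0759 and 0.073. The exceptions of group I were WRKY34, a pollen regulator (replicate 1 fold 2.87), and WRKY58, which acts in systemic acquired resistance (replicate 1 fold 3.11), both without a replicate 2 peak.

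In group IIa, WRKY18 had folds of 4.07 and 3.75, WRKY40 of 2.95 and 2.38, and WRKY60 had no peak in any list. These 3 proteins bind each other and act in part redundantly in pathogen and abscisic acid responses. WRKY18 had w and c folds of 7.52 and 5.33 and WRKY40 of 3.98 and 4.74. Group IIb had a peak in both replicates at 7 of 8 members (87.5%; 70.2% at the same length), all but WRKY31, which had a w peak (2.95) and a c peak (2.96) only. Of its phosphate regulators, WRKY42 had folds of 2.87 and 3.02 and WRKY6 of 2.95 and 1.92. WRKY61 (4.31 and 4.75, w 5.16, c 7.85) held 4 DRIP peaks in each replicate, of which the highest crossed the higher-coordinate end of the gene at chr1:6511374-6511673 in replicate 1. WRKY36, which represses the light-response gene HY5, had folds of 3.59 and 3.02, a w fold of 6.34 and no c peak.

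Group IIc, with 17 members, had a peak in both replicates at 10 (58.8%; 60.6% at the same length). It held both WRKY57, with the highest smaller fold of the family, and 5 members without a DRIP peak in either replicate: WRKY24, WRKY43, WRKY56, WRKY59 and WRKY75. WRKY50 (3.99 and 4.57, c 7.23, no w) and WRKY51 (3.91 and 4.57, w 6.77, c 2.67), which act together in repressing jasmonic acid responses, were at like DRIP folds, although their strongest strand peaks came from opposite lists. WRKY8 (4.31 and 4.39, w 7.96) and WRKY71 (2.79 and 2.93, c 5.04), a promoter of flowering, each had peaks of 1 strand. In group IId, whose proteins bind calmodulin, 5 of 7 members had peaks in both replicates (63.0% at the same length). WRKY17, the close relative of WRKY11 that acts with it in immunity, had DRIP folds of 4.39 and 3.75, both below those of WRKY11, a w fold of 7.96 and a c fold of 4.74. WRKY15 had folds of 3.05 and 2.53 and a c peak without a w peak. In group IIe, 6 of 7 members had peaks in both replicates (63.5% at the same length). WRKY29, which acts beside WRKY22 downstream of flagellin, was the one without any peak, and its nearest DRIP peaks lay 5229 and 5228 bp away. WRKY27, which influences symptoms of bacterial wilt, had folds of 3.57 and 3.67, and its DRIP peaks covered 72.1% and 43.8% of the gene. WRKY65 had folds of 4.63 and 5.03, w 8.25 and c 5.92.

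Of the WRKY groups, group III differed most from genes of its length. Only 3 of its 12 members had a DRIP peak in both replicates (25.0%), against 56.8% of genes of the same length, a difference of -31.8 percentage points (SD 3.80 over the differences in the 2 replicates). The 3 were WRKY54 (3.35 and 3.47), WRKY55 (3.91 and 4.57) and WRKY70 (6.30 and 5.12). The same 3 were those with a peak in either replicate. WRKY30, WRKY38, WRKY41, WRKY46, WRKY53, WRKY66 and WRKY67, 7 of the 12, had no peak of any kind. WRKY62 had only a w peak (2.65) and WRKY64 only a c peak (3.26). Strand peaks were also few in the group, with w peaks at 4 members (50.1% of genes of the same length) and c peaks at 3 (50.6%). Outside group III, 40 of 55 members had a peak in both replicates (72.7%; 64.7% at the same length).

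**Figure D4:**
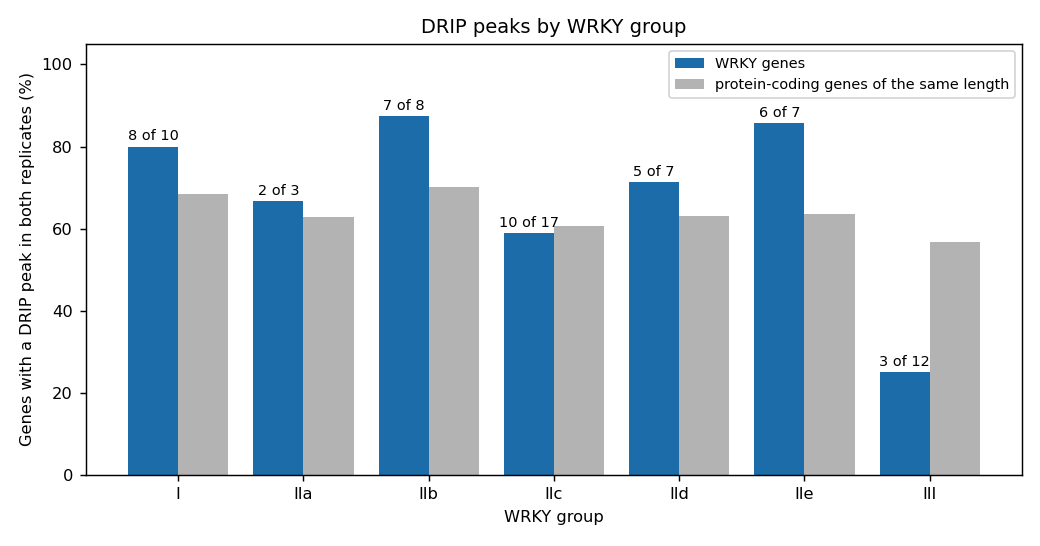
Share of WRKY genes with a DRIP peak in both replicates (blue, with the count above each bar) and of protein-coding genes of the same length (grey), in percent, for each WRKY group. Group III, at 3 of 12, is the one group whose bar is less than 30% and stands well below its grey bar.

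The pattern of group III was also read by gene length. The members of group III are 1059 to 2422 bp long, with a median of 1570.5 bp, against 2006 bp over all WRKY genes. Of the members under 1.6 kb, 0 of 7 in group III and 4 of 7 outside it had peaks in both replicates, where genes of the same length had 53.1% and 52.3%. Among the longer ones it was 3 of 5 in group III (62.1% at the same length) and 36 of 48 outside it (66.5%). Members outside group III that lie within its range of lengths had peaks in both replicates at 24 of 36 (66.7%; 61.4% at the same length). Whether the shortfall of group III lies outside chance was not tested. With 1 kb on either side of the gene counted, group III reached 7 of 12 through WRKY41, WRKY46, WRKY53 and WRKY67. Under that rule its difference from genes of the same length was -17.0 percentage points. ABO3 (WRKY63), a group III gene listed under another symbol, had DRIP folds of 3.43 and 2.65 and a w fold of 6.19. With ABO3 alone added the count was 4 of 13. RRS1 (WRKY52), also a WRKY gene under another symbol, had DRIP folds of 3.35 and 2.56 and was not added to that count. Counting RRS1 in group III as well would raise the group's share further, so the shortfall depends in part on the symbol rule.

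The members of group III without peaks include known regulators of immunity and ageing. WRKY53, a promoter of leaf senescence, had no peak although one lay 66 bp from it in replicate 1 and 65 bp in replicate 2, over the gene 3xHMG-box2 that overlaps WRKY53, with folds of 2.74 and 2.28. Its relative WRKY41, which acts in seed dormancy, likewise overlaps 3xHMG-box1, whose peaks lay 568 and 490 bp away. WRKY46, which acts with WRKY53 and WRKY70 in salicylic acid responses, had its nearest DRIP peaks 378 and 368 bp away, over SDH8. WRKY38 and WRKY62, negative regulators of basal defence that bind a histone deacetylase, both lacked DRIP peaks, and the nearest one to WRKY38 lay 9152 bp away in replicate 1 and 4328 bp away in replicate 2. WRKY54 and WRKY55 are neighbours, 919 bp apart, and both carried peaks: WRKY54 had a c fold of 6.07 and a w fold of 2.65, and WRKY55 a w fold of 6.93 and no c peak. The other neighbouring pair, WRKY64 and WRKY67 at 3857 bp from each other, both lacked DRIP peaks.

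In all, 19 WRKY genes had no DRIP peak in either replicate (28.4%; 31.2% of all genes and 28.3% of genes of the same length). No peak in any list was seen at 12 of them (17.9%; 20.7% and 17.4%): the 7 of group III and WRKY29, WRKY56, WRKY60, WRKY74 and WRKY75. WRKY75 acts in phosphate starvation and root hair growth. A strand peak without a DRIP peak was seen at 7 members (10.6% of all genes, 11.0% at the same length). WRKY10, the seed size gene MINI3, had a w fold of 3.83 and a c fold of 3.70, WRKY31 stood at 2.95 and 2.96, WRKY43 at a w fold of 3.24, and WRKY24 and WRKY59 at c folds of 2.67 and 2.96. WRKY62 and WRKY64 made up the rest. A peak in replicate 1 only was seen at 4 members (6.74% of all genes): WRKY23, a root auxin response gene, at 3.35, WRKY34, WRKY49 at 2.15 and WRKY58. Replicate 2 alone had a peak at 1 member (1.47% of all genes), WRKY39, at 2.74. All 5 also had a w peak, with folds of 3.39 at WRKY23, 4.86 at WRKY34, 2.95 at WRKY49, 4.72 at WRKY58 and 3.68 at WRKY39. Of all genes 54.9% had a w peak, but these genes include many without a DRIP peak. The share among genes with a peak in 1 replicate only is not given here. A c peak lay at WRKY23 (3.70), WRKY34 (4.00) and WRKY49 (2.67), and none at WRKY58 or WRKY39.

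At the other end, 6 members held 4 or more replicate 1 peaks (8.96%; 4.58% of all genes and 3.14% at the same length): WRKY4, WRKY19, WRKY20, WRKY26, WRKY33 and WRKY61. In replicate 2 there were 2 (2.99%; 3.01% and 1.97%), WRKY33 and WRKY61. WRKY4 had w and c folds of 6.78 and 6.96, WRKY20 DRIP folds of 3.35 and 3.29 with 5.89 and 4.03, and WRKY26 w and c folds of 5.13 and 4.62. WRKY19, at 8171 bp the longest member, encodes a protein that joins resistance protein, WRKY and kinase domains, and had folds of 4.54 and 4.04, with 7.52 in the w list and 4.15 in the c list. The peaks behind both DRIP folds also lay over AT4G12010, a gene that overlaps WRKY19, and cannot be given to either gene.

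Grouped by role, the immune response list of 20 members had DRIP peaks in both replicates at 14 (70.0%; 61.4% of genes of the same length), with w peaks at 14 (55.0% at the same length) and c peaks at 12 (55.1%). Its members with no DRIP peak were WRKY29, WRKY38, WRKY46, WRKY53, WRKY60 and WRKY62. The leaf senescence list had peaks at 6 of 7 members (63.6% at the same length), all but WRKY53. The phosphate list had 3 of 4 (64.1% at the same length), all but WRKY75, and its member WRKY45, which activates a phosphate transporter gene, had folds of 3.27 and 2.93. The heat list had 3 of 3 (64.4% at the same length). The development list had 4 of 9 (44.4%; 60.7% at the same length), namely WRKY2, WRKY12, WRKY13 and WRKY71. By chromosome, the counts with a peak in both replicates were 10 of 15, 10 of 15, 4 of 6, 11 of 16 and 8 of 15 on chromosomes 1 to 5, where genes of the same length had 62.9%, 62.8%, 62.3%, 67.0% and 60.7%.

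Genes that act with WRKY factors in the same pathways were read alongside. Of 32 listed kinases, receptors, regulators and targets, 24 had a DRIP peak in both replicates (75.0%; 60.6% of all genes, 67.6% at the same length). A w peak lay at 19 (54.9% of all genes) and a c peak at 22 (54.8%), without a share at the same length. The 3 with the highest smaller fold were SIB2, a partner protein of WRKY33 (5.26 and 5.76, c 9.04), the defence gene PR5 (5.26 and 5.67, w 5.16, c 8.86) and PAD4, a lipase-like regulator of immunity (5.18 and 5.12, w 8.99, c 4.00). Those with no DRIP peak in either replicate were MPK4, a kinase that holds WRKY33 in a complex (w 2.65), NPR1, the salicylic acid receptor, SIB1 and PR1.

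Most of the peaks that overlapped a WRKY gene lay wholly inside it. These peaks were picked by that overlap and are mostly short beside the genes. Shares for peaks at other genes are not given here, so the counts do not show whether WRKY genes differ. Of the 96 replicate 1 peaks 78 lay inside the gene, 9 crossed its lower-coordinate end and 9 its higher-coordinate end, and none spanned a gene. Replicate 2 had 81 peaks, of which 63 lay inside. The median width was 280.5 bp in replicate 1 and 302 bp in replicate 2. Of the replicate 1 peaks 79 (82.3%) overlapped a replicate 2 peak, and of the replicate 2 peaks 77 (95.1%) overlapped a replicate 1 peak. At 5 members, WRKY22, WRKY26, WRKY51, WRKY61 and WRKY72, the summit of the highest replicate 1 peak lay outside the gene. Another gene overlaps 13 members, 9 of which had DRIP peaks in both replicates, against 60.6% of all protein-coding genes. The share among other overlapped genes is not given here. The 6 replicate 1 peaks that lay over another gene too cannot be given to either one.

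Along the gene, peaks of the opposite strands took different places. The gene table gives no direction of transcription, so each gene was divided by coordinate into 3 equal parts. Of w peak bases at WRKY genes 22.8% lay in the lower, 35.3% in the middle and 41.9% in the upper part, close to the 24.6%, 33.3% and 42.1% of genes of the same length. Of c peak bases 42.6%, 26.7% and 30.7% did so, beside 42.9%, 32.9% and 24.2%. The middle part held less DRIP signal than in genes of the same length, with 27.8% of the bases in replicate 1 and 27.6% in replicate 2, against 33.0% and 32.6%. By bases the upper part held more, 37.9% and 40.8% against 33.0% and 33.2%. This depends on the measure: of the DRIP signal in the lower and upper parts together, the upper part held 54.4% ± 2.69 (SD, n = 2) by bases and 49.6% by peak summits. In the 30 members with no other gene within 500 bp, the upper part held 46.6% and 45.0% of DRIP peak bases. Genes of the same length, with or without close neighbours, had 33.3% and 33.4%, a comparison made by bases only. In the same 30 genes DRIP peaks covered 20.1% ± 1.02 (SD, n = 2) of the gene, 8.00% ± 0.335 of the 500 bp below it and 12.3% ± 0.0566 of the 500 bp above it. The 6446 protein-coding genes of like length and isolation had 16.5% ± 1.12, 6.43% ± 0.266 and 6.15% ± 0.154. The WRKY values for the gene, the stretch below it and the stretch above it each exceeded those of the other set by more than these SDs, which cover the spread between replicates and not that between genes.

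**Figure D5:**
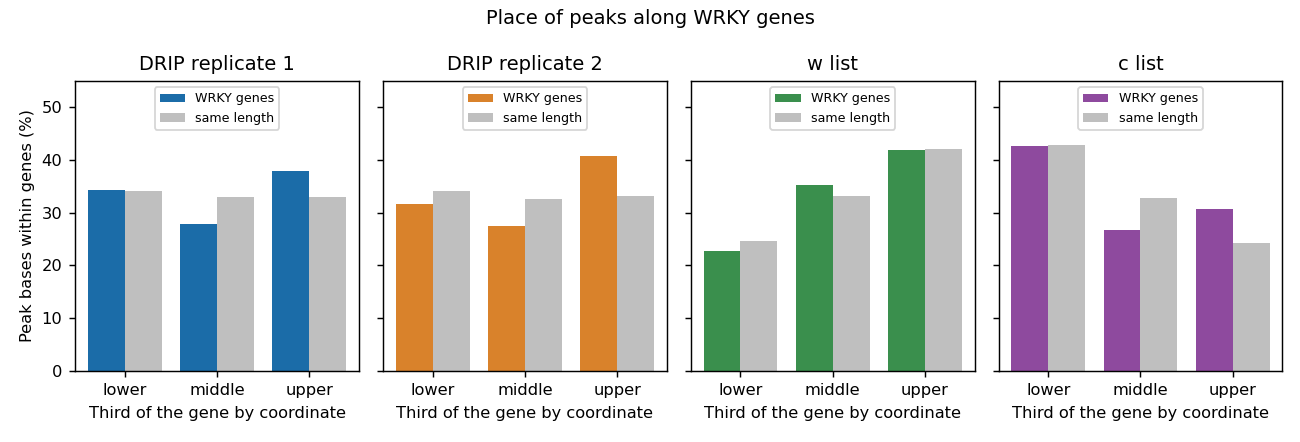
Share of peak bases (percent) in the lower, middle and upper of 3 equal parts of the gene by coordinate, in each of the 4 lists, for the 67 WRKY genes (coloured) and protein-coding genes of the same length (grey). The w bars rise and the c bars are highest in the lower part, and the middle DRIP bars of WRKY genes, at 27.8% and 27.6%, lie under the grey ones.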

How the data were processed

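DRIP peaks of 2 replicates and of the w and c strand lists were used as deposited. The submitters' processing notes name CASAVA, BWA 0.7.12 and MACS2 as tools and TAIR10 as the genome build. Settings, the control used in peak calling and whether replicates were pooled: not given in the sources used here. The fold of a peak is the authors' deposited ratio of summit pileup to local background. The deposited −log10 p-values and −log10 q-values come from the authors' peak calls, and the smallest −log10 q-value of the lists was between 1.30132 and 1.34408. The deposited summit distance from the peak start (another kind of value, in bp) gave each summit's place.

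Genes came from a RefSeq table of TAIR10.1, which succeeds the build of the peaks. To check the join, peaks were shifted by up to 500 bp in either direction, 50 bp at a time, and the share of peak bases in protein-coding genes was highest at 0 bp in both replicates (66.3% and 66.7%). Only peak coordinates, counted from 1, are printed. All 67 members matched by symbol. Strand, exons and sequences were not used here, so peaks were not set against gene orientation and no pairs were chosen by protein identity. Overlaps were computed with pandas 2.3.3 and numpy 2.4.6. On simulated peaks, 0 of 549 genes checked had a wrong overlap. WRKY groups and role lists come from general knowledge, and WRKY10, WRKY19 and WRKY45 were not placed in a group. Members and lists were chosen with earlier results of these data known, and related genes were paired in the text after their values were seen. Values in all lists were given by rule for the 8 members with the highest smaller fold, the 5 highest in each strand list, members with no peak or a peak in 1 replicate, the 3 with most replicate 1 peaks and neighbours within 10 kb. That the samples are replicates is known from labels alone, and their spread may be technical. No p-values were computed.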

Additional observations from a re-analysis of the deposited data

How the results depend on the processing

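Other rules for overlap, peak threshold, gene span, length matching, replicates and members gave 54 values. A value was taken as moved when it changed by more than the spread between replicates, for strand shares by more than their binomial (Wilson) interval, or for a count by over 1.5 times, and 9 moved. That interval counts genes or peaks as if they were independent replicates, which they are not. It set the label only and does not measure the spread between samples. The count of WRKY genes with DRIP peaks in both replicates was 43 and ran from 34, with the upper 50% of peaks by fold, to 48, with 1 kb on either side of the gene. Over the same rules the w count of 45 ran from 31 to 51 and the c count of 42 from 32 to 48. The DRIP count was 44 and 47 with 1 replicate left out. With the summit inside the gene WRKY22 and WRKY51 dropped out, and with a −log10 q-value of at least 2 WRKY6 did. The difference of the WRKY share from genes of the same length was 3.61 points without length matching and between -0.0816 and 0.935 with 1 replicate left out, so its sign turned without replicate 2. The group III count rose from 3 to 7 with 1 kb on either side, and the group's difference was then -17.0 points. That difference was -27.3 by summits, -25.8 with ABO3 and between -38.8 and -33.5 with 1 replicate left out. Of the 55 members with a strand peak 58.2% had peaks of both lists, and 40.0% did with the upper 50% of peaks by fold. The difference of the share with peaks of both lists from genes of the same length, 16.1 points, ran from 10.7, with the upper 50% of peaks by fold, to 25.7, with genes that have no other gene within 500 bp. The upper part's share of DRIP peak bases in the outer parts was 54.4% ± 2.69 by bases and 49.6% by summits, so the excess there depends on the measure. The causes of these changes were not tested. Group III, strand and place alternatives were in part chosen after the data were seen. No paired analysis was possible because only the DRIP group has peak lists here. Depth is unknown, so a missing peak shows only that none passed the authors' threshold.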

Other observations

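The WRKY genes listed under other symbols carried peaks at low to middle folds. ZAP1 (WRKY1) had DRIP folds of 2.94 and 3.03, with 5.38 in the w list and 3.26 in the c list. TTG2 (WRKY44), which acts in trichome and seed coat development, had folds of 2.63 and 3.20 and a c fold of 4.59. RRS1 (WRKY52), whose protein joins an immune receptor to a WRKY domain, had folds of 3.35 and 2.56, with 5.89 in the w list and 3.41 in the c list. TTR1 (WRKY16) had a replicate 1 fold of 2.63, no replicate 2 peak and a c fold of 4.30. With these 5 genes added, 47 of 72 had a DRIP peak in both replicates, against 60.6% of all protein-coding genes.

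Upstream of WRKY factors, the immune kinase and receptor genes carried peaks of different strand lists. BIK1, a kinase of pattern receptor complexes, had DRIP folds of 5.50 and 4.85 and a c fold of 9.27, and MPK3 had 5.34 and 4.85 and a c fold of 9.33, and neither had a w peak. The receptor gene EFR had DRIP folds of 3.59 and 3.29, a w fold of 6.34 and no c peak, and FLS2, the flagellin receptor gene, had peaks of both lists (w 6.48, c 5.33). These 4 genes were chosen after their values were seen.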
